A study of Mus musculus with 15 samples.

Results

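Lungs of mice with ovalbumin-induced allergic airway inflammation were compared with and without ginsenoside Rg3, a saponin of Panax ginseng. The comparison used the 5 libraries of ovalbumin mice given Rg3 (OVA_Rg3) and the 5 libraries of ovalbumin mice without it (OVA), which are 10 of the 15 libraries of the series. The other 5 were from normal saline mice without ovalbumin or Rg3 (control). All mice were labelled wild type, and no strain, sex or age is named in the labels used here. Ovalbumin was given by intraperitoneal injection and by inhaled aerosol, and Rg3 by gavage at 20 mg/kg during the induction. The labels name no vehicle gavage for the OVA group, so gavage and Rg3 cannot be told apart. All libraries carry the label Batch 1 and are labelled biological replicates. Messenger RNA of whole lung was selected on oligo(dT) beads. In such bulk tissue, fewer cells of a type and less RNA per cell cannot be told apart. Of the 14766 genes in the deposited table, 12137 reached a value of 1 in at least 5 libraries and were tested.

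Inhaled ovalbumin in a sensitised mouse is a standard model of allergic asthma. T helper 2 cells and innate lymphoid cells release interleukins that recruit eosinophils, turn airway club cells into mucus-secreting cells and drive macrophages towards an alternatively activated state, marked by Chil3, Retnla and Arg1. Ginsenoside Rg3 has been studied mainly as an anti-inflammatory and antitumour compound, with NF-kappaB, MAP kinases, PI3K and Nrf2 among the pathways examined. Gene lists for these pathways and for the cell types of the lung were therefore described one by one.

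Lung markers were present in all 10 libraries. Sftpc, the surfactant protein of alveolar type 2 cells, lay between 1402 and 7073 in scaled value, which is the deposited value divided by a median-ratio factor for the library. OVA_Rg3 1 stood apart from the others. It had 2022 of the tested genes at 0, against 36 to 202 in the other 9 libraries, and its median correlation with the other libraries of its group was 0.737, against 0.889 to 0.947 for the other 9. Summed over 12 liver genes it reached 2082, against 7.44 to 140.1 in OVA_Rg3 2 to 5 and 429.3 in OVA 4, and summed over 10 skeletal muscle genes it reached 1242, against 8.14 to 29.8 in OVA_Rg3 2 to 5. The smallest step between its low values, which 1 read on 1 kb would make if the values are FPKM, was 1.16, against 0.129 to 0.311 in OVA_Rg3 2 to 5, and each step may be off by a whole factor. Results are therefore given with and without OVA_Rg3 1 where it moves them. The median SD of a gene's log2 value was 0.426 over the OVA_Rg3 libraries, 0.269 without OVA_Rg3 1 and 0.343 over the OVA libraries.

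No gene passed the test in either direction. With limma on log2(scaled value + 1), 0 genes (0%) were higher and 0 genes (0%) were lower in OVA_Rg3 than in OVA at an adjusted p under 0.05, and the lowest adjusted p was 0.0824. At an unadjusted p under 0.05, 515 genes (4.24%) lay higher and 530 genes (4.37%) lay lower. The 5 OVA_Rg3 libraries lay above all 5 OVA libraries for 58 genes (0.478%) and below all of them for 98 genes (0.807%), and 22 of the 98 had OVA_Rg3 1 at 0. Without OVA_Rg3 1, these counts were 131 (1.08%) and 152 (1.25%). Leaving out any library can only keep or raise such counts, so the rise says nothing about OVA_Rg3 1 itself. Over all genes tested, the log2 change was above 0 for 53%. Its median was 0.02, and 8 in 10 genes lay between -0.42 and 0.43. On the values as deposited, without scaling, that median was 0.317, so changes below are relative to the scaled median. List medians on the values as deposited are to be read against 0.317 and not against 0. The median SE of a log2 change was 0.244, and the median half-width of its 95% interval was 0.519.

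**Figure D1:**
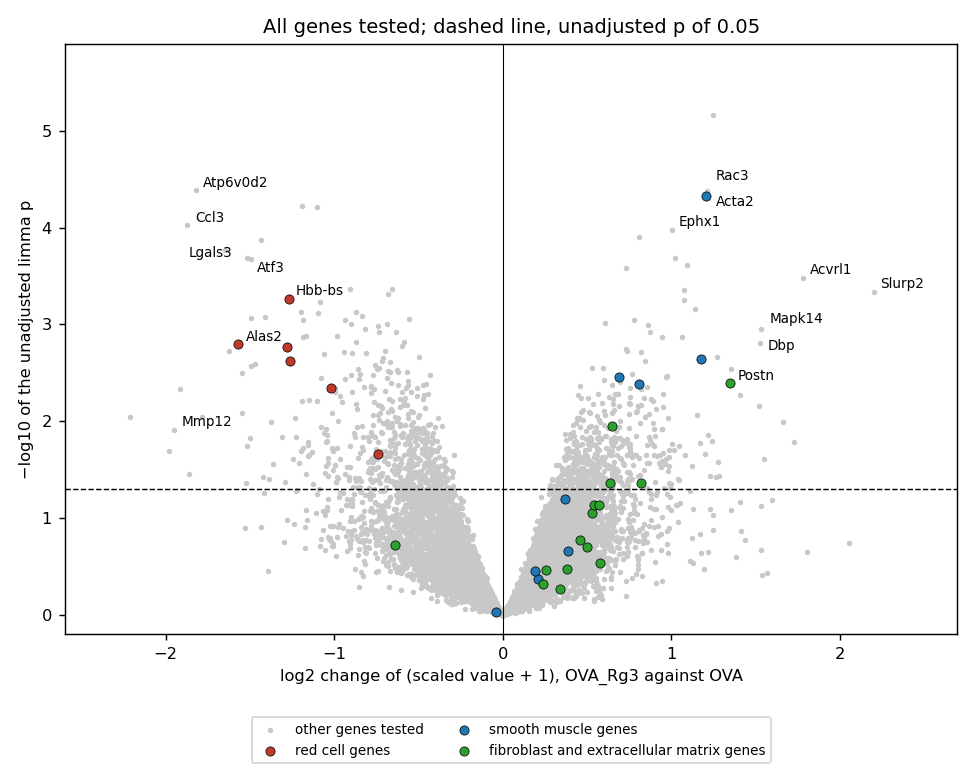
Each point is 1 of the 12137 genes tested; the horizontal axis is the log2 change of (scaled value + 1) between 5 OVA_Rg3 and 5 OVA libraries and the vertical axis is minus log10 of the unadjusted limma p. No gene passed at an adjusted p under 0.05; all 6 red cell genes (red) lie left of 0, with Alas2 and Hbb-bs marked, and 8 of 9 smooth muscle genes (blue) lie right of it.

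The gene of lowest p was Mfsd6, a membrane transporter-like protein, named here after its values were seen. It stood at 0.375, 0.414, 0.42, 0.844 and 0.681 in OVA 1 to 5 and at 3.15, 2.79, 2.33, 4.17 and 1.42 in OVA_Rg3 1 to 5, so that every OVA_Rg3 library lay above every OVA library. Between groups the log2 change was 1.25 ± 0.19 (SE, n = 5 libraries per group; limma, adjusted p = 0.0824). With limma, the adjusted p was 0.00876 without OVA_Rg3 5, the lowest of its group, and 0.0921 without OVA_Rg3 1. Its level in control lung was 4.46 ± 0.55 (SD).

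Smooth muscle genes lay higher in OVA_Rg3 lungs. Acta2 (chr19:34241090-34255336, GRCm38), the alpha-actin of airway and vascular smooth muscle, had scaled values of 22.3, 17.9, 32.2, 40.2 and 33.1 in OVA 1 to 5. In OVA_Rg3 1 to 5 it had 60.2, 81.2, 78.1, 72.3 and 46.1. The groups did not overlap, and every one of these libraries lay below the lowest control library, at 121.8. This was a log2 change of 1.21 ± 0.22 (SE; limma, adjusted p = 0.122). Weighting libraries by their quality (array weights) gave a log2 change of 1.44 with an adjusted p of 0.0469 in limma, so the call depends on that setting. Actg2, the gamma-actin of visceral smooth muscle, had a log2 change of 1.18 ± 0.32, and reads of these related actins may be split between them by the counting. Myh11, the smooth muscle myosin heavy chain, had a log2 change of 0.81 ± 0.24, and Smtn, the smoothelin of contractile fibres, one of 0.69 ± 0.20. Of the 9 smooth muscle genes tested, 0 passed, 8 lay above 0 and 4 had an unadjusted p under 0.05, against 53% and 4.24% of all genes tested. Their median log2 change was 0.39, and 0.65 without OVA_Rg3 1. The exception below 0 was Cnn1, the calponin of contractile cells, at -0.04 ± 0.61, which turned to 0.65 without OVA_Rg3 1. Averaged over the list, log2 levels spanned 2.92 to 3.67 across OVA libraries and 3.55 to 4.05 across OVA_Rg3 libraries, so the libraries overlapped.

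Genes of fibroblasts and extracellular matrix showed a similar lean. Postn, the matricellular protein periostin, stood at 2.69, 2.15, 0.922, 2.62 and 2.33 in OVA 1 to 5 and at 7.99, 16.4, 8.53, 3.1 and 3.7 in OVA_Rg3 1 to 5. No library of the OVA_Rg3 group lay in the OVA range, and OVA_Rg3 2 was highest. Its log2 change was 1.35 ± 0.40 (SE; limma, adjusted p = 0.441). Mmp2, the gelatinase A that cleaves collagen, is not on the list and was named because it separated the groups. It stood at 1.77 to 3.17 across OVA libraries and 5.37 to 12.3 across OVA_Rg3 libraries, with a log2 change of 1.09 ± 0.23 (SE; limma, adjusted p = 0.196). The fibrillar collagen chains Col1a2 and Col3a1 had log2 changes of 0.65 ± 0.23 and 0.82 ± 0.37, with overlapping libraries. Eln, elastin, had a log2 change of -0.64 ± 0.47. Of the 15 genes tested on this list, 0 passed, 14 lay above 0 and 4 had an unadjusted p under 0.05, against 53% and 4.24% of all genes tested. Their median log2 change was 0.53. Without OVA_Rg3 1, 12 of 15 lay above 0, 2 had an unadjusted p under 0.05 and the median was 0.39.

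Vessel wall and alveolar genes leaned the same way within wide spreads. Acvrl1 (chr15:101128522-101145336), the endothelial receptor of the TGF-beta family also called ALK1, stood at 9.85, 6.83, 5.1, 6.16 and 7.84 in OVA 1 to 5. In OVA_Rg3 1 to 5 it stood at 19.4, 64.3, 36.1, 10.4 and 26.8. The groups did not overlap, but OVA_Rg3 4 lay close to the highest OVA library. The log2 change was 1.78 ± 0.39 (SE; limma, adjusted p = 0.234), and control lung had 7.47 ± 3.77 (SD), near the OVA level. Of 12 lung endothelial genes, a list without Acvrl1, 0 passed and 11 lay above 0, against 53% of all genes tested, with a median log2 change of 0.38. Among them Ptprb, a receptor phosphatase of endothelial cells, had a log2 change of 0.93 ± 0.38 and Pecam1, the junction protein CD31, one of 0.39 ± 0.27. The 11 alveolar type 2 genes had log2 changes from 0.00 to 0.88, with a median of 0.33 and 0 with an unadjusted p under 0.05. The largest was that of Abca3, the lipid pump of lamellar bodies, at 0.88 ± 0.46. Of 10 alveolar type 1 genes, 8 lay above 0, including Aqp5, a water channel, at 0.75 ± 0.24 and Ager, the receptor RAGE, at 0.92 ± 0.44.

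**Figure D2:**
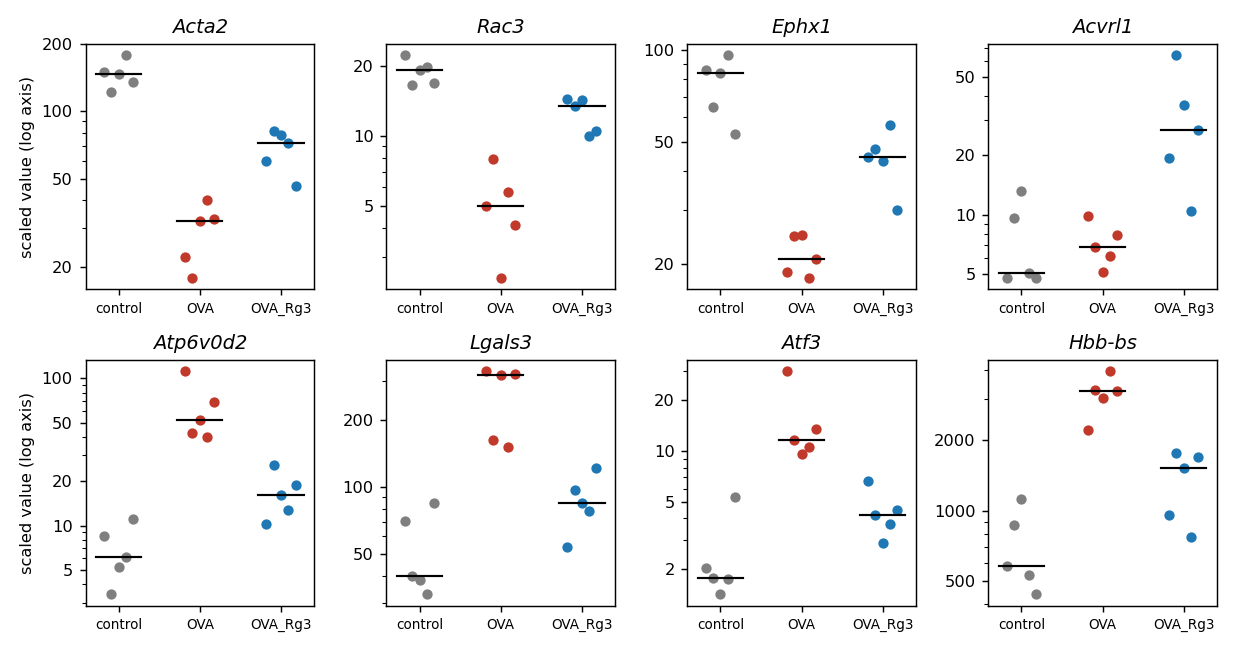
Scaled values (log axis) of 8 genes in the 5 control, 5 OVA and 5 OVA_Rg3 libraries; each point is a library and each bar a group median. The OVA_Rg3 points lie above all OVA points for Acta2, Rac3, Ephx1 and Acvrl1 and below all of them for Atp6v0d2, Lgals3, Atf3 and Hbb-bs.

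Airway epithelial genes were read by cell type. Of 9 club cell genes, 0 passed and 7 lay above 0, with a median log2 change of 0.36, or 0.50 without OVA_Rg3 1. On the values as deposited it was 0.78, against 0.32 for all genes tested. Ces1d, a carboxylesterase, and Cbr2, a carbonyl reductase, had log2 changes of 0.80 ± 0.26 and 0.74 ± 0.33. Scgb1a1, the main club cell secretoglobin, had one of -0.17 ± 0.46, with values from 20093 to 61528 across OVA libraries and 13782 to 38890 across OVA_Rg3 libraries. Of 11 ciliated cell genes, 5 lay above 0 with a median of -0.04, and 10 lay above 0 with a median of 0.31 without OVA_Rg3 1, in which Tekt1, a tektin of the axoneme, was at 0. Of 11 mucous cell genes, 3 lay above 0 with a median of -0.14, which was 0.17 without OVA_Rg3 1. On the values as deposited it was 0.28, again against 0.32 for all genes tested. Clca1, a secreted product of goblet cells, ran from 17.7 to 201.8 across OVA libraries and 40.8 to 284.4 across OVA_Rg3 libraries, and its log2 change was 0.15 ± 0.94. Muc5b, a gel-forming mucin, had a log2 change of -0.07 ± 0.48. Muc5ac, the other gel-forming mucin of the airway, reached 1 in only 3 libraries and was not tested.

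Ephx1, Por, Acsf2 and Rac3 also separated the groups upwards. Ephx1 (chr1:180976210-181020904), the microsomal epoxide hydrolase, stood at 18.8, 24.6, 24.8, 17.9 and 20.7 in OVA 1 to 5. In OVA_Rg3 1 to 5 it stood at 44.6, 47.2, 43.4, 56.9 and 29.9, all above the OVA libraries and with OVA_Rg3 5 lowest. On the log2 scale the change was 1.00 ± 0.19 (SE; limma, adjusted p = 0.159). For Por, the reductase that passes electrons to cytochrome P450 enzymes, it was 1.14 ± 0.27 (SE; limma, adjusted p = 0.306). Its highest OVA library and its lowest OVA_Rg3 library both stood at 30, so the separation was narrow. Acsf2, an acyl-CoA synthetase of mitochondria, spanned 1.92 to 4.79 across OVA libraries and 6.32 to 10 across OVA_Rg3 libraries. Rac3, a small GTPase of the Rac group, spanned 2.43 to 7.98 across OVA libraries and 10 to 14.4 across OVA_Rg3 libraries, with a log2 change of 1.22 ± 0.22 (SE; limma, adjusted p = 0.122). Control lung had 76.8 ± 17.3 for Ephx1, 65.0 ± 16.7 for Por, 13.6 ± 3.17 for Acsf2 and 18.9 ± 2.35 for Rac3 (mean ± SD), in each case above the OVA_Rg3 mean.

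The remaining genes named for separating the groups upwards were Bicc1, an RNA-binding protein, Tspan4, a tetraspanin, and Slurp2, a secreted protein of the Ly6 family. Bicc1 and Tspan4 had log2 changes of 1.08 ± 0.24 and 1.08 ± 0.25. Slurp2 was listed at 0 in all 5 OVA libraries and stood at 9.26, 0.97, 2.9, 7.71 and 2.01 in OVA_Rg3 1 to 5, so no fold is given for it.

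Atp6v0d2 and Lgals3 were among the genes that separated the groups downwards. Atp6v0d2 (chr4:19876841-19922605), the d2 subunit of the vacuolar proton pump, stood at 111.8, 42.8, 52.5, 39.9 and 69.7 in OVA 1 to 5. In OVA_Rg3 1 to 5 it stood at 10.2, 25.7, 16.1, 12.8 and 18.8. All OVA_Rg3 libraries lay below all OVA libraries, and OVA 1 was highest. On the log2 scale the change was -1.82 ± 0.32 (SE; limma, adjusted p = 0.122), or -1.67 without OVA_Rg3 1. Lgals3 (chr14:47367751-47386160), galectin-3, stood at 331.0, 163.0, 317.8, 151.2 and 321.5 in OVA 1 to 5 and at 53.6, 96.7, 85.1, 78.0 and 121.4 in OVA_Rg3 1 to 5. All OVA_Rg3 libraries were again lower, and the log2 change was -1.52 ± 0.31 (SE; limma, adjusted p = 0.183). Cstb, cystatin B, an inhibitor of lysosomal cathepsins, had a log2 change of -1.20 ± 0.29, which was -0.96 without OVA_Rg3 1. The actin-binding proteins Capg and Cotl1 had log2 changes of -0.91 ± 0.20 and -1.09 ± 0.25. Control levels were 6.86 ± 2.98 for Atp6v0d2 and 53.1 ± 22.8 for Lgals3 (SD), below both groups' means.

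Of 10 alveolar macrophage genes tested, 0 passed and 3 lay above 0, against 53% of all genes tested. The 1 with no overlap below OVA, against 0.807% of all genes tested, was Atp6v0d2, named above for that separation. The median log2 change was -0.09. That median was -0.31 without OVA_Rg3 1 and 0.25 on the values as deposited, where all genes tested had 0.32. Fabp5, a fatty acid carrier, had a log2 change of -0.75 ± 0.29, whereas Ear2, an eosinophil-associated ribonuclease also found in macrophages, had one of 1.28 ± 0.52. Of 11 monocyte and interstitial macrophage genes, 7 lay above 0, with a median of 0.10, or -0.02 without OVA_Rg3 1, and 0 had no overlap below OVA. Csf1r, the receptor on which macrophages depend, had a log2 change of 0.52 ± 0.34.

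Alternatively activated macrophage genes varied widely within each group. Mmp12, the macrophage elastase, stood at 205.5, 76.5, 26.4, 22.0 and 17.7 in OVA 1 to 5 and at 8.95, 37.9, 20.1, 2.29 and 7.02 in OVA_Rg3 1 to 5. OVA_Rg3 2 and OVA_Rg3 3 lay inside the OVA range. This gave a log2 change of -1.95 ± 0.69 (SE; limma, adjusted p = 0.519). Arg1, arginase, had a log2 change of -0.95 ± 0.59. Chil3 and Retnla, a chitinase-like and a resistin-like protein, had log2 changes of -0.20 ± 0.53 and -0.31 ± 0.64. Chil4 had one of -0.87 ± 0.89, and reads of the near-identical Chil3 and Chil4 may be split. Of the 12 genes tested, 0 passed and 0 had no overlap below OVA, against 0.807% of all genes tested. Above 0 lay 5 of them, and the median was -0.25. On the values as deposited it was 0.17, still below the 0.32 of all genes tested.

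**Figure D3:**
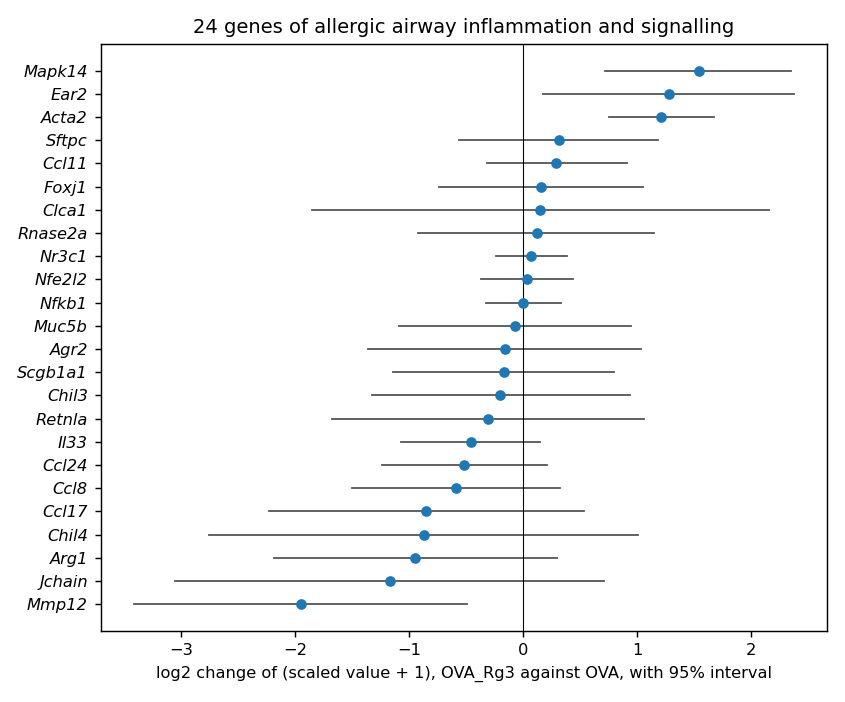
Log2 change of (scaled value + 1) between OVA_Rg3 and OVA for 24 genes of allergic airway inflammation, lung cell types and signalling; points are limma estimates from 5 libraries per group and lines are 95% intervals. The intervals of 20 of the 24 genes include 0, and those of Mapk14, Ear2 and Acta2 lie above it and that of Mmp12 below it.

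Type 2 cytokines and chemokines did not separate the groups. Il33, the epithelial alarmin, stood at 26.2, 14.6, 13.2, 14.7 and 17.2 in OVA 1 to 5 and at 12.7, 15.7, 11.8, 8.35 and 11.9 in OVA_Rg3 1 to 5. OVA_Rg3 2 lay inside the OVA range, and the log2 change was -0.46 ± 0.29 (SE; limma, adjusted p = 0.677). Ccl8 and Ccl24, chemokines for leukocytes including eosinophils, had log2 changes of -0.59 ± 0.43 and -0.52 ± 0.34, and Ccl24, at 0 in OVA_Rg3 1, had -0.23 without that library. Ccl17, made by dendritic cells, had one of -0.85 ± 0.65, and -0.34 without OVA_Rg3 1. Ccl11, the eosinophil chemokine eotaxin, had one of 0.29 ± 0.29. Of 9 genes tested, 0 passed and 3 lay above 0, with a median of -0.29, or -0.01 without OVA_Rg3 1. The interleukin genes Il4, Il5 and Il13 were on the fixed list and were not analysed here. Receptors and signalling genes of this pathway, such as Gata3 at -0.22 ± 0.20, had a median of -0.13 over 12 genes, which was 0.00 without OVA_Rg3 1. On the values as deposited it was 0.20, against 0.32 for all genes tested.

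Few eosinophil and lymphocyte genes reached the level for testing. Of 3 eosinophil genes tested, all lay above 0, with Ear1 at 1.42 ± 0.90, Ear2 at 1.28 ± 0.52 and Rnase2a at 0.12 ± 0.49. Ear1 was at 0 in OVA_Rg3 1 and at 23.1 in OVA_Rg3 4, and its mean was 11.1 in control and 1.92 in OVA. Among listed genes not tested, the highest deposited values in OVA and OVA_Rg3 were 2.66 and 0.619 for Il5ra. They were 3.71 and 0.867 for Alox15 and 1.23 and 1.97 for Siglecf. Prg2, the major basic protein of eosinophil granules, reached 1 in 0 libraries. Of 7 B cell genes, 0 passed, 1 lay above 0 and 3 had an unadjusted p under 0.05 below 0, against 4.37% of all genes, with a median of -0.43. Without OVA_Rg3 1, 2 had such a p and the median was -0.25. On the values as deposited the median was -0.07, against 0.32 for all genes tested. Pax5, the transcription factor of B cell identity, stood at 2.11, 1.24, 2.21, 1.52 and 1.16 in OVA 1 to 5 and at 0.0307, 0.938, 0.365, 0.194 and 0.844 in OVA_Rg3 1 to 5. The groups did not overlap, and the log2 change was -0.87 ± 0.21 (SE; limma, adjusted p = 0.306). Of 8 plasma cell genes, 2 lay above 0, with a median of -0.53, or -0.32 without OVA_Rg3 1. Jchain, the joining chain of polymeric antibodies, spanned 141.2 to 1139 across OVA libraries and 131.7 to 353.1 across OVA_Rg3 libraries, and Mzb1, a chaperone of antibody-secreting cells, was at 0 in OVA_Rg3 1. Of 4 T cell genes tested, 1 lay above 0, with a median of -0.40, or -0.13 without OVA_Rg3 1, and Il7r, the interleukin 7 receptor, had a log2 change of -0.84 ± 0.40. Of 4 neutrophil genes, 2 lay above 0, and all 4 did so without OVA_Rg3 1, which had S100a9 and Retnlg at 0.

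Red cell genes were the list in which most members separated the groups. Erythroid cells make haemoglobin from alpha chains (Hba-a1, Hba-a2), beta chains (Hbb-bs, Hbb-bt) and haem, whose synthesis is limited in these cells by Alas2. GATA1 binds sequences such as AGATAA, and KLF1 binds CACCC sequences, in the control regions of such genes. The promoters of 3 of these genes are shown because these genes lay lower together. They are the 250 bases before the RefSeq gene start (GRCm38.p6), 5′ to 3′ in the direction of the gene, in lower case. Capitals mark these motifs, and CCAAT, which binds the factor NF-Y, on either strand. The windows are Hbb-bs at chr7:103827929-103828178, minus strand, Hba-a1 at chr11:32283422-32283671, plus strand and Alas2 at chrX:150547167-150547416, plus strand.
Hbb-bs: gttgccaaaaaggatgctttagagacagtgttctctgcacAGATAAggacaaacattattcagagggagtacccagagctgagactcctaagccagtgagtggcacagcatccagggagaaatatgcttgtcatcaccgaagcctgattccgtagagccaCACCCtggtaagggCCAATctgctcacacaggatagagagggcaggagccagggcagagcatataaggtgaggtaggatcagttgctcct
Hba-a1: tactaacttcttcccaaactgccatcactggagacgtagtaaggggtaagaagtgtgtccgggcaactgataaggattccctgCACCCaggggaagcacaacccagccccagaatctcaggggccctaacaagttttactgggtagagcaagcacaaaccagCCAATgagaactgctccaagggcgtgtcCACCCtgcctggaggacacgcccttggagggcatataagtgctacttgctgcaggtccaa
Alas2: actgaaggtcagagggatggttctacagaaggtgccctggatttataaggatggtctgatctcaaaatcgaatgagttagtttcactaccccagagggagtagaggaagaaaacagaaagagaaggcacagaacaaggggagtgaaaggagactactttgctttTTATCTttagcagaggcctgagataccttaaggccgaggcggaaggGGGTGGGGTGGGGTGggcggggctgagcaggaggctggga
Only the exact letters AGATAA were searched for, so related sequences that GATA1 may bind were not counted. AGATAA was at 0 places in the windows of Hba-a1 and of Hba-a2 and Hbb-bt, which are not printed. It was found at 1 place in the windows of Hbb-bs and of Alas2 and in 9.99% of 32851 promoter windows of this length. CACCC, which lay at 1 place before Hbb-bs, at 2 before Hba-a1 and at 3 before Alas2, was in 52% of them, and CCAAT, at 1 place each before Hbb-bs and Hba-a1, in 33.8%. The Alas2 matches to both motifs are on the opposite strand, and no matches overlap in these windows. A match describes letters in this window and not a bound site. Of the 6 red cell genes tested, 5 had a window in the table, and those of Hba-a1 and Hba-a2 were identical over 247 bases when shifted by 3.

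Hbb-bs had scaled values of 2204, 3282, 3038, 3928 and 3228 in OVA 1 to 5. In OVA_Rg3 1 to 5 it had 961.1, 1768, 1527, 769.9 and 1688. All OVA_Rg3 libraries lay below all OVA libraries, and OVA_Rg3 1 and 4 were lowest. The log2 change was -1.27 ± 0.29 (SE; limma, adjusted p = 0.28). Alas2, whose protein starts haem synthesis, stood at 36.0, 50.9, 20.3, 44.3 and 26.2 in OVA 1 to 5 and at 4.22, 19.9, 13.7, 6.23 and 17.8 in OVA_Rg3 1 to 5. Here too no libraries overlapped, with a log2 change of -1.57 ± 0.41 (SE; limma, adjusted p = 0.353). Hbb-bt, Hba-a2 and Hba-a1 had log2 changes of -1.28 ± 0.34, -1.26 ± 0.35 and -1.02 ± 0.31, and reads may be split within each pair of near-identical globin genes. Of 6 red cell genes tested, 0 passed, 6 lay below 0, 6 had an unadjusted p under 0.05 and 5 had no overlap, against 4.37% and 0.807% of all genes. The median log2 change was -1.27, and -1.11 without OVA_Rg3 1. Summed over the 7 listed genes in the table, values spanned 6809 to 12475 across OVA libraries, 2471 to 5769 across OVA_Rg3 libraries and 1144 to 3058 across control libraries. Blood retained in the lung also carries these transcripts, and its part in the result was not tested.

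**Figure D4:**
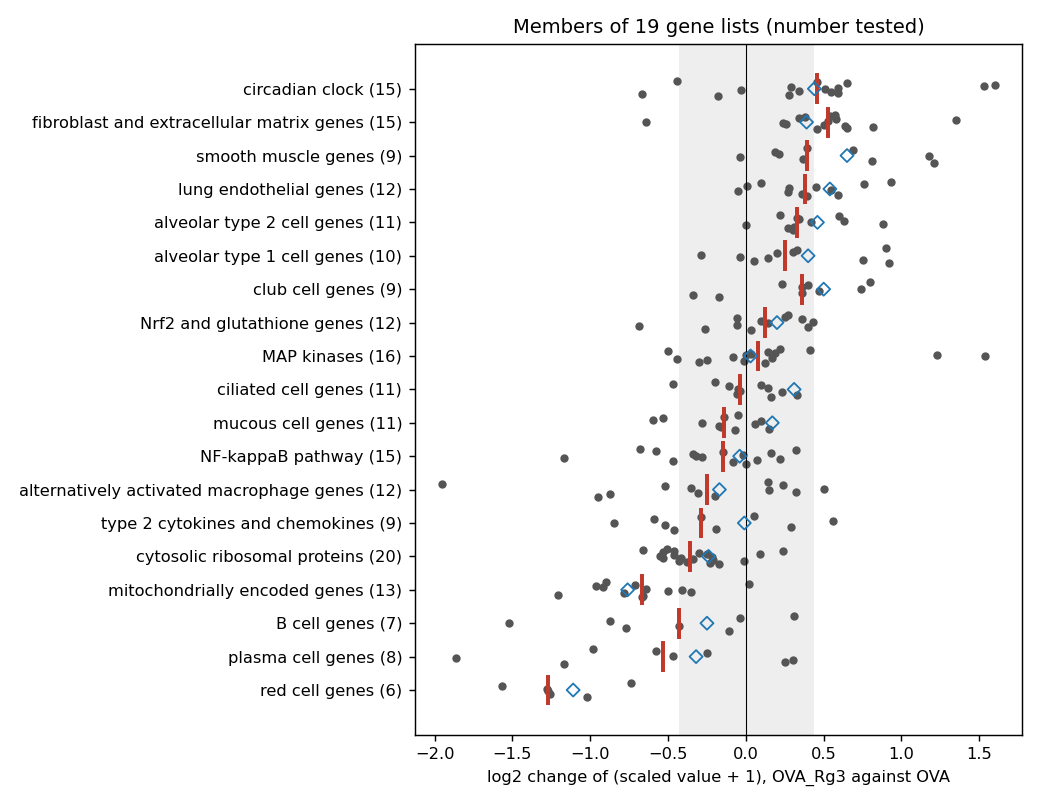
Log2 change of (scaled value + 1) between OVA_Rg3 and OVA for each tested member (grey points) of 19 gene lists, with the list median (red bar) and the median without OVA_Rg3 1 (open blue diamond); the grey band holds the middle 8 in 10 of all genes tested. The red cell list, with a median of -1.27, is the only one of the 19 whose members all lie outside the band. On the values as deposited the median of all genes tested is 0.32. There the medians of the ribosomal, NF-kappaB, mucous, ciliated and alternatively activated macrophage lists lie above 0 but below 0.32.

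Pathways examined for Rg3 showed single genes apart from their lists. Mapk14 (chr17:28691342-28748404), the p38-alpha kinase, stood at 0.669, 0.655, 5.3, 1.97 and 1.18 in OVA 1 to 5 and at 8.39, 5.37, 6.03, 5.27 and 7.79 in OVA_Rg3 1 to 5. Only OVA 3 reached the OVA_Rg3 range, and the log2 change was 1.54 ± 0.38 (SE; limma, adjusted p = 0.315). Control libraries ran from 0.407 to 3.61, and all 5 lay below the OVA_Rg3 libraries. Map2k3, an activator of p38, had a log2 change of 1.23 ± 0.66. Of 16 genes of the MAP kinase list, 0 passed and 10 lay above 0, with a median of 0.08, or 0.03 without OVA_Rg3 1. Dusp1, a phosphatase that acts on p38, had a log2 change of -0.50 ± 0.41.

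In the NF-kappaB list the inhibitor gene stood apart. Nfkbia, whose protein holds NF-kappaB in the cytoplasm and which is itself a target of the pathway, stood at 150.7, 183.6, 177.2, 119.8 and 106.5 in OVA 1 to 5. In OVA_Rg3 1 to 5 it stood at 24.6, 77.8, 72.6, 89.9 and 82.4. The groups did not overlap, and OVA_Rg3 1 was far below the rest. The log2 change was -1.17 ± 0.30 (SE; limma, adjusted p = 0.324), and -0.83 without OVA_Rg3 1. Tnfaip3, the inhibitor A20, had a log2 change of -0.58 ± 0.24, while the subunits Nfkb1 and Relb had 0.00 ± 0.16 and 0.07 ± 0.18. Of 15 genes, 0 passed and 5 lay above 0, with a median of -0.15, which was -0.04 without OVA_Rg3 1. On the values as deposited it was 0.21, against 0.32 for all genes tested. Among proinflammatory genes, Ccl3, a chemokine of macrophages, stood at 6.19, 3.8, 4.89, 1.87 and 5.63 in OVA 1 to 5 and at 0, 1.97, 0.995, 0 and 0 in OVA_Rg3 1 to 5. Only OVA 4 lay below the highest OVA_Rg3 library, and the log2 change was -1.87 ± 0.36 (SE; limma, adjusted p = 0.159).

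Atf3, a transcription factor induced by cell stress, separated the groups downwards. It stood at 29.7, 11.6, 9.66, 10.6 and 13.6 in OVA 1 to 5 and at 6.64, 4.18, 2.86, 3.69 and 4.47 in OVA_Rg3 1 to 5. This gave a log2 change of -1.50 ± 0.31 (SE; limma, adjusted p = 0.183). Fos and Egr1, other transcription factors of the early response, had log2 changes of -0.35 ± 0.43 and 0.09 ± 0.40. The 11 immediate early genes tested had a median of -0.15, which was -0.01 without OVA_Rg3 1. On the values as deposited it was 0.26, against 0.32 for all genes tested. Gadd45a, induced by DNA damage, had a log2 change of -0.83 ± 0.20 without overlap. Brd9, a subunit of chromatin remodelling complexes, and Rala, a Ras-like GTPase, also lay lower without overlap, with log2 changes of -0.66 ± 0.15 and -0.68 ± 0.15. Hsp90b1, an endoplasmic reticulum chaperone, had a log2 change of -0.74 ± 0.25, and the 11 genes of the unfolded protein and stress response had a median of -0.05, or -0.09 without OVA_Rg3 1. Rsad2, the interferon-induced protein viperin, had a log2 change of -1.18 ± 0.29 without overlap. The median of 12 interferon-stimulated genes was -0.21, which was -0.04 without OVA_Rg3 1. On the values as deposited it was 0.11, again against 0.32 for all genes tested.

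The lists of Nrf2 and PI3K genes held 0 called genes. Of 12 Nrf2 and glutathione genes, 0 passed and 8 lay above 0, with a median of 0.12, or 0.20 without OVA_Rg3 1. Hmox1, haem oxygenase, had a log2 change of -0.69 ± 0.23, and Nqo1, a quinone reductase, had 0.40 ± 0.26. Nfe2l2, the gene of Nrf2 itself, had 0.03 ± 0.19. Of 16 genes of PI3K, Akt and mTOR, 10 lay above 0, with a median of 0.09 and 0 at an unadjusted p under 0.05. Nr3c1, the glucocorticoid receptor, had a log2 change of 0.07 ± 0.15, and 12 glucocorticoid-responsive genes had a median of -0.04, or -0.19 without OVA_Rg3 1. Of 7 leukotriene and prostaglandin genes, 5 lay above 0, with a median of 0.34, or 0.17 without OVA_Rg3 1, and Ltc4s, the leukotriene C4 synthase, had 0.95 ± 0.37.

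Clock genes leaned higher. Dbp, an output transcription factor of the circadian clock, stood at 3.35, 5.54, 11.2, 16.3 and 23.0 in OVA 1 to 5 and at 17.5, 30.2, 32.1, 44.2 and 32.2 in OVA_Rg3 1 to 5. Only OVA 5 reached the OVA_Rg3 range, where it lay above OVA_Rg3 1. The log2 change was 1.53 ± 0.40 (SE; limma, adjusted p = 0.351). Cry2, a repressor of the loop, had a log2 change of 0.51 ± 0.16, and Npas2, an activator, had -0.67 ± 0.25. Of 15 clock genes, 0 passed and 11 lay above 0, against 53% of all genes tested, with a median of 0.46. The mean log2 level over the list spanned 2.05 to 2.36 across OVA libraries and 2.42 to 2.91 across OVA_Rg3 libraries, without overlap. The labels give no time of day for the tissue collection.

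Lists of growth and housekeeping genes held 0 called genes. On the values as deposited, where all genes tested had a median of 0.32, that of 13 cell cycle genes was -0.02. After scaling, 4 of these 13 lay above 0 with a median of -0.23, and 6 lay above 0 without OVA_Rg3 1. Among them were Top2a, a topoisomerase of dividing cells, at -0.53 ± 0.19 and Cdk1, the mitotic kinase, at -0.43 ± 0.17. Of 20 cytosolic ribosomal protein genes, 2 lay above 0, with a median of -0.36, which was -0.24 without OVA_Rg3 1. The median of these 20 genes was 0.06 on the values as deposited, again below 0.32. Rps24 had the lowest p of them, with a log2 change of -0.66 ± 0.21. Of 13 mitochondrially encoded genes, 12 lay below 0, with a median of -0.67. Their log2 changes ranged from -1.21 for mt-Nd3, a subunit of complex I, to 0.02 for mt-Atp6, a subunit of the ATP synthase. The median was -0.25 on the values as deposited, against 0.32 for all genes tested, and -0.01 after quantile normalization. That method gives the highest-ranked values nearly equal levels in every library, so the -0.01 cannot show whether the level of these genes changed. These transcripts made up 65.0% ± 15.9 of the summed values in OVA, 56.4% ± 10.3 in OVA_Rg3 and 24.6% ± 3.95 in control (mean ± SD, n = 5). The OVA_Rg3 share was 8.57 percentage points below that of OVA on average (difference -8.57, exact two-sided permutation test, p = 0.349, smallest possible p 0.00794), and the groups overlapped, at 46.2% to 79.8% across OVA libraries and 41.6% to 70.4% across OVA_Rg3 libraries. The 19 nuclear-encoded respiratory chain genes had a median of 0.12, or 0.04 without OVA_Rg3 1. Before median-ratio scaling, a larger share of mitochondrial transcripts lowers every other value of a library, and its part in the list medians was not tested.

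**Figure D5:**
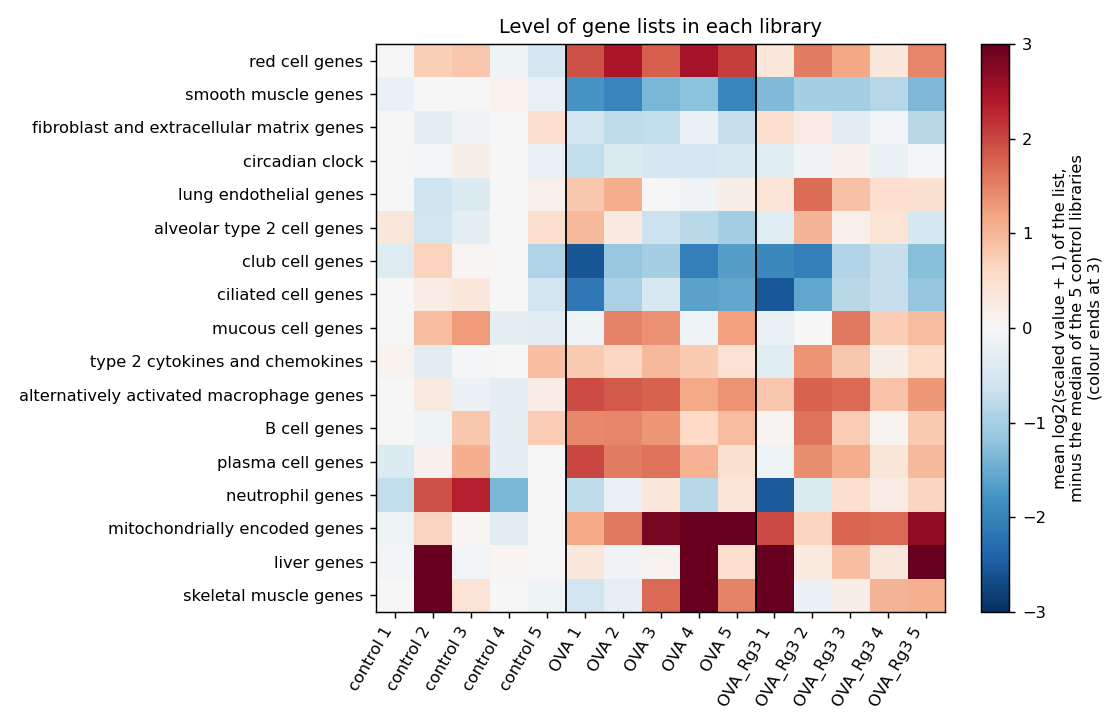
Mean log2(scaled value + 1) of 17 gene lists in each of the 15 libraries, minus the median of the 5 control libraries, on a colour scale that ends at 3 in both directions. Red cell genes lie between 6.58 and 7.80 in OVA_Rg3 and between 8.07 and 8.75 in OVA before the control median is taken off, and OVA_Rg3 1 is set apart by liver and skeletal muscle genes and by low neutrophil and ciliated cell genes.

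Set beside control lung, the genes named for separating OVA_Rg3 from OVA showed unlike patterns. The comparisons with control and between the OVA groups share the OVA libraries, so their values are given side by side only. For Atp6v0d2 the log2 change was 3.01 ± 0.32 in OVA against control and 1.19 ± 0.32 in OVA_Rg3 against control. For Lgals3 these were 2.27 ± 0.31 and 0.75 ± 0.31, and for Hbb-bs 2.21 ± 0.29 and 0.93 ± 0.29. Acta2 had -2.33 ± 0.22 and -1.12 ± 0.22, and Ephx1 had -1.78 ± 0.19 and -0.77 ± 0.19, so the OVA_Rg3 level of these 5 genes lay between those of the other groups. The same held for Rac3 (-1.78 and -0.57), Por (-1.80 and -0.66), Acsf2 (-1.70 and -0.68) and Atf3 (2.18 and 0.69). It also held for Capg (1.71 and 0.80), Cotl1 (1.39 and 0.31), Brd9 (0.81 and 0.16) and Rala (0.73 and 0.05). Acvrl1 did not share this pattern, with 0.02 ± 0.39 in OVA against control and 1.80 ± 0.39 in OVA_Rg3 against control. Gadd45a had 0.24 ± 0.20 and -0.59 ± 0.20. Slurp2, Mmp2, Bicc1, Tspan4 and Cstb, also named for no overlap, did not lie between the other groups either. Mmp2 had -0.92 ± 0.23 and 0.17 ± 0.23, and Bicc1 had -0.68 ± 0.24 and 0.39 ± 0.24. Tspan4 had -0.65 ± 0.25 and 0.43 ± 0.25, and Cstb had 1.02 ± 0.29 and -0.17 ± 0.29. Mapk14, whose OVA and OVA_Rg3 libraries overlapped, had 0.07 ± 0.38 and 1.60 ± 0.38.

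Tissue outside the airways was read from marker lists. Of 8 liver genes tested, 8 lay above 0 with a median of 1.39, and 2 lay above 0 with a median of 0.04 without OVA_Rg3 1. Of 7 skeletal muscle genes, 6 lay above 0 with a median of 0.55, and 0 lay above 0 with a median of -0.69 without OVA_Rg3 1. Adipose genes had a median of 0.36, and -0.85 without OVA_Rg3 1. OVA 4 had the highest sums of its group for skeletal muscle and adipose genes, at 259.0 and 158.3. Without control 2, OVA 4 and OVA_Rg3 1, the medians were 0.68 for liver, 0.16 for skeletal muscle and -0.38 for adipose genes. Heart muscle genes, which lung libraries carry from the pulmonary veins, had a median of 0.21, with sums of 9.56 to 89.8 across OVA libraries and 25.8 to 56.9 across OVA_Rg3 libraries. Mesothelial genes, which mark the lung surface, had a median of -0.37, with sums of 60.1 to 410.1 across OVA libraries and 99.1 to 198.5 across OVA_Rg3 libraries. Without OVA_Rg3 1, the log2 changes of Acta2 and Myh11 were as large, at 1.25 and 0.86, and that of Actg2 was 0.97.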

How the data were processed

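Gene values of 10 OVA and OVA_Rg3 libraries were compared, and 5 control libraries entered the model of the spread. The deposited values are taken as FPKM made by the authors. The file header names no unit, and TPM over a larger gene set would look alike. The submitters' processing notes name Trimmomatic, featureCounts, GRCm39 and mm39, with no version or role, while the deposited positions match GRCm38. Read counts were not used, so no counting interval is given. Each library was divided by its median ratio over 6365 genes at 1 or more in all 15 libraries. Log2(scaled value + 1) of 12137 genes was fitted with limma 3.58.1 in R 4.3.3, with 3 group means, trend and robust settings and Benjamini-Hochberg adjustment, and called at an adjusted p under 0.05. The fit was tested on simulated data. Limma p-values set a difference of group means against a spread estimated from all 15 libraries.

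Members and lists were chosen with earlier results of these data known. Named genes were up to 10 called genes per direction, filled to 10 per direction by the smallest p among genes without overlap and with a mean of at least 2 (numbered models and variable segments left out), 24 tested of 28 fixed genes, and the 2 genes of smallest p in each of 52 lists with at least 3 tested genes of 57 lists written, in all 137 genes. A few genes are not reported here. Other genes on these lists are also named where the text describes a list. The mitochondrial share was tested by exact permutation. Figures used Python 3.11.15 and matplotlib 3.10.9. Alternatives covered scaling, filters, pseudocount, weights, replicate block and left-out libraries.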

Additional observations from a re-analysis of the deposited data

Results flagged for a closer look

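Samples far from the rest of their group were looked for in 278 sets of 5 libraries, 1 per named gene or library measure and group. Chance alone marks about 1 in 20 such sets, and 30 were marked, 20 of them in OVA_Rg3 1. That library had the most tested genes at 0, 2022, and the lowest median correlation with its group, 0.737.

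OVA_Rg3 1 was far below the rest of its group for Cstb at 47.8, Nfe2l2 at 19.3, Psmb8 at 10.6, Nfkbia at 24.6, Hmox1 at 5.78 and Tppp3 at 50.5. It was listed at 0 for S100a9, Retnlg, Nr1h3, Smad2 and Tekt1. It was far above the rest for Eno1 at 34.8, Atp5b at 118.5, Pvalb at 246.4, Tnni2 at 87.6, Retn at 19.7, Cidea at 110.6 and Mbp at 58.2, and Pvalb and Tnni2 are genes of skeletal muscle, Retn and Cidea of adipose tissue and Mbp of myelin.

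Among the OVA libraries, OVA 4 was far above the rest for Ahsg at 15.6, a liver gene, and Retn at 3.96. OVA 1 was lowest for Mmp2 at 1.77 and highest for Gadd45a at 12.7 and Pmaip1 at 9.91. OVA 3 was lowest for Mtor at 0.845 and Postn at 0.922. In the Rg3 group, OVA_Rg3 2 was lowest for Scgb1a1 at 13782, OVA_Rg3 4 was lowest for Map2k3 at 3.95 and OVA_Rg3 5 was highest for Nfkb1 at 6.13.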

How the results depend on the processing

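Of 27 alternatives, 5 were chosen after seeing the data. The count of genes called lower was 0 in all 27. The count called higher was 1 with a pseudocount of 0.1 (Mfsd6), 2 with array weights (Acta2 and Mfsd6), 1 without control 2, OVA 4 and OVA_Rg3 1 (Nanp), and 3 without OVA_Rg3 1 on the values as deposited (Acta2, Nanp and Dbp), which was one of the added alternatives. It ranged from 0 to 1 when single libraries were left out, the 1 being Mfsd6 without OVA_Rg3 5, and was 0 otherwise. The cause was not tested. The number of genes whose libraries did not overlap was 156, against 256 on the values as deposited and 92 with a filter at 5, where 6674 genes were tested. Genes at an unadjusted p under 0.05 numbered 1045, and 637 to 2053 under the alternatives other than a test against a log2 change of 1, which left 5.

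The replicate block gave 0 calls in either direction and a mitochondrial share difference of -8.57 points (exact permutation p = 0.25). Deviations of libraries of the same number had correlations of 0.01, 0.16, 0.18, -0.19 and 0.33, and number 5 alone correlated best with its own. These correlations cannot show whether the numbers pair animals. The share difference stayed below 0 in all its alternatives, from -13.3 to -4.86 when single libraries were left out. Over 137 named genes and the alternatives, 3469 of 3631 values kept direction and side of the threshold, 3 passed it and 159 had the other sign without passing. None of the 20 genes named for no overlap had another sign. They were picked for full separation in these same libraries, which largely fixed that outcome, so it is no check on them. Depth limits low genes most in OVA_Rg3 1.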

Other observations

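Lists not described above also held 0 called genes. Antigen presentation leaned higher for class II, with 5 of 7 genes above 0 and a median log2 change of 0.35 (H2-DMa, which loads peptides onto class II molecules, 0.62 ± 0.29), while 9 class I genes had a median of 0.04, or -0.02 without OVA_Rg3 1, with H2-K1 at 0.58 ± 0.33 and the immunoproteasome gene Psmb8 at -0.52 ± 0.27, or 0.37 and -0.21 without that library. Of 10 inflammasome and toll-like receptor genes, 1 lay above 0, and the median was -0.20, which was -0.10 without OVA_Rg3 1. On the values as deposited it was 0.06, against 0.32 for all genes tested. Pycard, the inflammasome adaptor, had a log2 change of -0.50 ± 0.27. Siglech, a marker of plasmacytoid dendritic cells, lay lower in all 5 OVA_Rg3 libraries than in any OVA library, at a level under 1 in every one of them.

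Of 14 glycolysis genes, 9 lay above 0 with a median of 0.20, and 7 did so with a median of 0.01 without OVA_Rg3 1. The median was 0.09 for 14 cholesterol synthesis genes and 0.05 for 13 liver X and PPAR target genes, or -0.03 and -0.09 without OVA_Rg3 1, and 0.05 for 13 apoptosis genes. Within the lipid list Plin2, which coats lipid droplets, spanned 36.0 to 242.1 across OVA libraries and 28.5 to 43.7 across OVA_Rg3 libraries, with a log2 change of -1.04 ± 0.38. Hspe1, a mitochondrial chaperonin, was lower in every OVA_Rg3 library than in any OVA library (-0.56 ± 0.17), while 10 heat shock genes had a median of 0.04, or -0.03 without OVA_Rg3 1. The median of 13 TGF-beta signalling genes was 0.06, or 0.13 without OVA_Rg3 1, and Smad2, a signal transducer of the pathway, was at 0 in OVA_Rg3 1, against 3.58 to 7.65 in the other 9 libraries.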
